A study of Homo sapiens with 10 samples.

Results

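Of 10 genes of the TEAD and YAP system, 8 could be read on arrays of MCF10A cells with and without the histone variant H2A.X. The genes are the TEAD factor gene TEAD1, the TEAD cofactor genes VGLL1 and VGLL3, the regulators LATS2 and AJUBA, and FJX1, CRIM1, CCN1, CCN2 and ANKRD1, which are described as targets of the coactivator YAP. They were taken by symbol from the probe sets named in the platform annotation, and LATS2 and CCN1 were not analysed here. The 8 genes had 9 probe sets, of 16098 probe sets that carried 1 gene symbol and stood for 14884 genes in all. No filter on low signals was applied. The genes were chosen with the knockout and parental values in view, so their differences are given as a description and without a test.

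MCF10A is a breast epithelial line of human origin that grows indefinitely but does not form tumours. There were 5 arrays of parental cells (H2A.X WT) and 5 of H2A.X knockout cells. Both groups grew for 48 h in DMEM/F12 with horse serum, EGF, hydrocortisone, cholera toxin and insulin. The labels do not say whether the 5 samples of a group were separate cultures, nor whether the knockout was a single clone, so errors and p-values reflect differences among these samples alone and may be technical in origin.

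TEAD proteins bind DNA but need a partner to act on a gene. YAP and its relative TAZ, the product of WWTR1, are the best known partners. The Hippo kinases MST act on the kinases LATS, which phosphorylate YAP and TAZ and so keep them out of the nucleus. The vestigial-like (VGLL) proteins have no DNA-binding domain of their own and dock on a surface of TEAD that YAP and TAZ also use. In epithelial cells the pathway is known for sensing cell contact and stretch, and CCN1, CCN2 and ANKRD1 are its most used readouts.

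All values below are log2 signals per probe set, as the authors deposited them, so a difference of 1 is a 2-fold change in signal. Array medians lay between 4.26 and 4.35 after the authors' normalisation, so a general shift between the groups could not be seen in these values. The targeted gene was not analysed here. The basal epithelial markers KRT5, KRT14 and EGFR, 3 of 9 on the list that were measured, exceeded the median gene mean (5.49) in both groups. All 3 rose in knockout cells, KRT14 by 2.59, KRT5 by 0.78 and EGFR by 0.69 (limma adjusted p from 1.11e-10 to 1.28e-06). The log2 of their summed signal was 11.22 to 11.32 in parental and 12.32 to 12.49 in knockout arrays. Markers of other cell types also differed: of 3 measured fibroblast markers of a list of 10, DCN rose (2.06, limma adjusted p = 3.45e-10) while LUM (-0.09) and THY1 (0.11) did not pass. The summed fibroblast signal was 5.81 to 6.02 in parental and 6.77 to 6.95 in knockout arrays on the log2 scale. Of 4 measured endothelial markers KDR rose (1.69, adjusted p = 1.43e-08), and PECAM1, VWF and EMCN did not pass, at differences of 0.09, -0.04 and 0.02. Of 3 measured immune markers CSF1R rose (0.72), CD14 (-0.76) and CD68 (-0.37) fell, and the muscle marker DES did not pass (0.27). The part of these signals in the results on the TEAD and YAP genes was not tested. In bulk RNA, a change in the number of cells that use a gene and a change in the RNA per cell cannot be told apart.

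Among the 8 genes, 7 had a positive difference (knockout minus parental) and 1 a negative one. In 6 of the 8, all knockout arrays lay above all parental arrays, a pattern seen in 12.2% of the 14884 genes. The median difference of the 8 was 0.72, against 0.00 over all genes. Because this contrast chose the genes, nothing is read from that count or that median. VGLL3 was furthest from 0, and VGLL1, TEAD1 and the second probe set of CCN2 had groups that overlapped.

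**Figure D1:**
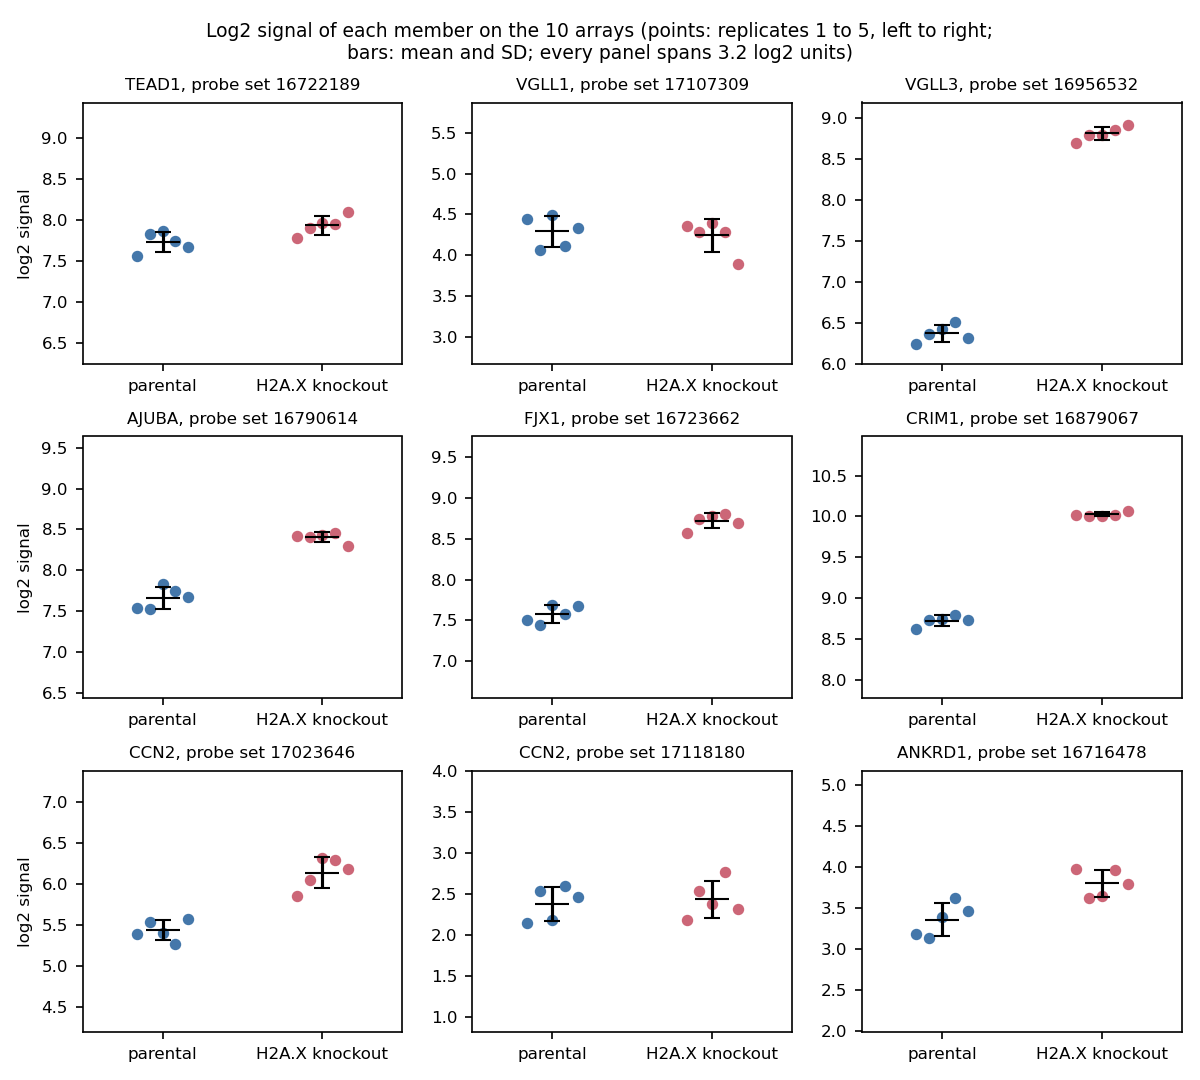
Log2 signal (vertical axis) of the 9 probe sets in 5 parental and 5 knockout arrays. Points are single arrays, and bars give the group mean and SD. The VGLL3 groups are 2.18 apart at their nearest arrays, while those of VGLL1 and of the dim CCN2 probe set 17118180 lie over each other.

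TEAD1 encodes a TEAD factor, the DNA-binding partner in the complex. Its signal (probe set 16722189) was 7.56, 7.83, 7.87, 7.75 and 7.67 on parental replicates 1 to 5, and 7.78, 7.90, 7.97, 7.95 and 8.10 on knockout replicates 1 to 5. The groups overlapped: 4 of 5 knockout arrays lay above every parental array, and knockout replicate 1 lay below parental replicates 2 and 3. The means were 7.74 ± 0.12 and 7.94 ± 0.12 (SD, n = 5 each), a difference of 0.21 ± 0.08 (SE of the limma fit), or 1.15-fold.

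VGLL3 encodes a TEAD cofactor of the vestigial-like family. Probe set 16956532 read 6.24, 6.36, 6.43, 6.51 and 6.31 in parental cells and 8.70, 8.80, 8.80, 8.85 and 8.92 in knockout cells. The highest parental array was 2.18 below the lowest knockout array. The means were 6.37 ± 0.11 and 8.81 ± 0.08 (SD, n = 5 each), and the difference was 2.45 ± 0.07 (SE), or 5.45-fold, the 8th highest of 14884 genes. That rank is a description only, since this contrast chose the genes.

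VGLL1, the other vestigial-like gene, was dim in both groups, below the median gene mean. Its signal (probe set 17107309) was 4.45, 4.07, 4.49, 4.12 and 4.33 in parental cells and 4.36, 4.29, 4.40, 4.28 and 3.89 in knockout cells. The groups overlapped apart from knockout replicate 5, the lowest of all arrays. The means were 4.29 ± 0.19 and 4.24 ± 0.20 (SD, n = 5 each), a difference of -0.05 ± 0.11 (SE). With an array left out this difference ran from -0.10 to 0.04, so it had no settled sign. The table gives no detection call, so whether this signal lay above background is not known.

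AJUBA encodes a LIM-domain protein of cell junctions that binds the LATS kinases and holds back their action on YAP. Probe set 16790614 read 7.54, 7.53, 7.84, 7.75 and 7.68 in parental cells and 8.42, 8.41, 8.43, 8.46 and 8.30 in knockout cells. All knockout arrays were higher, and they lay within a narrow band. The means were 7.67 ± 0.13 and 8.40 ± 0.06 (SD, n = 5 each), a difference of 0.74 ± 0.07 (SE), or 1.67-fold.

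FJX1 is the human relative of the fly gene four-jointed, whose product is a Golgi kinase for the large cadherins Fat and Dachsous upstream of Hippo. FJX1 is itself counted among YAP targets. On probe set 16723662 the signal was 7.51, 7.44, 7.69, 7.58 and 7.68 in parental cells and 8.57, 8.74, 8.78, 8.80 and 8.69 in knockout cells. The lowest knockout array stood 0.88 above the highest parental array. The means were 7.58 ± 0.11 and 8.72 ± 0.09 (SD, n = 5 each), a difference of 1.14 ± 0.07 (SE), or 2.20-fold.

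CRIM1 encodes a cysteine-rich transmembrane protein that binds bone morphogenetic proteins. Its signal (probe set 16879067) was 8.62, 8.74, 8.75, 8.80 and 8.73 in parental cells and 10.02, 10.01, 10.01, 10.02 and 10.07 in knockout cells. The knockout arrays lay within 10.01 to 10.07, and only 2.98% of all genes had a smaller spread within groups. The means were 8.73 ± 0.07 and 10.02 ± 0.03 (SD, n = 5 each), a difference of 1.29 ± 0.05 (SE), or 2.45-fold.

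CCN2, once named CTGF, encodes a secreted matricellular protein, and its promoter is the standard TEAD reporter. The probe set that stood for it (17023646) read 5.39, 5.54, 5.40, 5.27 and 5.57 in parental cells and 5.85, 6.05, 6.31, 6.29 and 6.18 in knockout cells. All knockout arrays were higher, with replicate 1 the nearest to the parental arrays. The means were 5.43 ± 0.12 and 6.14 ± 0.19 (SD, n = 5 each), a difference of 0.70 ± 0.09 (SE), or 1.63-fold. The parental mean was just below the median gene mean.

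The other CCN2 probe set (17118180) did not show this. It read 2.14, 2.53, 2.18, 2.59 and 2.46 in parental cells and 2.18, 2.53, 2.37, 2.77 and 2.32 in knockout cells, at the dim end of the table. The groups overlapped, with means of 2.38 ± 0.21 and 2.44 ± 0.23 (SD, n = 5 each) and a difference of 0.06 ± 0.12 (SE). With the mean of both probe sets in place of the brighter one, the CCN2 difference was 0.38. CCN2 was the only one of the 8 genes with more than 1 probe set.

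ANKRD1 encodes an ankyrin repeat protein known from stressed heart muscle and used widely as a YAP readout. The ANKRD1 signal (probe set 16716478) was 3.18, 3.14, 3.39, 3.62 and 3.47 in parental cells and 3.98, 3.63, 3.65, 3.97 and 3.79 in knockout cells. The groups did not overlap, but the gap between the highest parental and the lowest knockout array was only 0.01. The means were 3.36 ± 0.20 and 3.81 ± 0.17 (SD, n = 5 each), a difference of 0.45 ± 0.10 (SE), and both lay well below the median gene mean. As for VGLL1, whether the ANKRD1 signal lay above background is not known. Of all genes, 79.5% had a smaller spread within groups.

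The spread within groups differed among the 8 and is given as a description. The pooled SD was 0.05 for CRIM1, 0.10 for VGLL3, AJUBA and FJX1, 0.12 for TEAD1, 0.16 for CCN2, 0.18 for ANKRD1 and 0.20 for VGLL1, against a median of 0.13 over all genes. The 2 genes with the widest spread, VGLL1 and ANKRD1, were also those whose group means were both below the median gene mean. With each array left out in turn, VGLL3 ran from 2.41 to 2.48, CRIM1 from 1.27 to 1.31, FJX1 from 1.10 to 1.18, AJUBA from 0.70 to 0.78, CCN2 from 0.66 to 0.77, ANKRD1 from 0.39 to 0.51 and TEAD1 from 0.16 to 0.25.

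The upstream sequences of the genes were searched for the letters that TEAD factors are known to bind, GGAATG, which reads CATTCC on the other strand. RefSeq promoter windows (GRCh38.p14) were matched by symbol for 7 of the 10 genes, with 8 windows since AJUBA had a pair of them, and no sequence is given for TEAD1, CRIM1 and CCN1. The 250 bases upstream of the start are printed for CCN2 and ANKRD1, which held the most matches, and for VGLL3, whose difference was the largest, each 5′ to 3′ on the gene's strand with GGAATG in capitals. The windows are chr6:131951373-131951622 (minus strand) for CCN2, chr10:90921088-90921337 (minus strand) for ANKRD1 and chr3:86991150-86991399 (minus strand) for VGLL3.
CCN2: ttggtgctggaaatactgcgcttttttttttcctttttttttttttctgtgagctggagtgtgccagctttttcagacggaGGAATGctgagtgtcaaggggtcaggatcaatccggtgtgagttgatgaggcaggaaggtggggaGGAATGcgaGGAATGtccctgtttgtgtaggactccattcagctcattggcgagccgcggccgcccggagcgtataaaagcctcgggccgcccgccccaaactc
ANKRD1: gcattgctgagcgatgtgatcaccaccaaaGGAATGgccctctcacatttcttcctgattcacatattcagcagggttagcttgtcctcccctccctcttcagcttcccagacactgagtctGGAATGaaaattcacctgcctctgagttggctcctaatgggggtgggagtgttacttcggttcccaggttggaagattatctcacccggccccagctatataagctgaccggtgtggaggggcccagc
VGLL3: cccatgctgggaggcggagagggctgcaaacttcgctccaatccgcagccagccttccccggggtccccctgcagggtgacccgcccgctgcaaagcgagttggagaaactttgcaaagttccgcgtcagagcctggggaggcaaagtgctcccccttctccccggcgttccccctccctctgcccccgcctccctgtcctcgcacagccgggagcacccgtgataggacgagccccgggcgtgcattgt

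The CCN2 promoter held 3 matches, starting 169, 104 and 95 bases before the start, the latter pair 9 bases apart. At least 3 matches in 250 upstream bases were found in 29 of 35116 RefSeq promoter windows (0.0826%). The ANKRD1 promoter held 2, starting 220 and 128 bases before the start, and at least 2 were found in 0.940% of windows.

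VGLL1 had 1 match, on the opposite strand 157 to 152 bases before its start. AJUBA had 1 match 59 bases before the start in 1 of its windows (chr14:22976843-22977092, minus strand) and none in the other (chr14:22982552-22982801, minus strand). LATS2 had a match only after its start, and VGLL3 and FJX1 had none in their windows. At least 1 match stood in 11.9% of all upstream windows. A match is a run of letters and no measured binding, and sites further away, such as enhancers, were not searched.

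The differences of neighbouring genes are given beside those of the 8, as a description: the genes were chosen by their own differences, so how far they stand from their neighbours is no test. The 8 genes lie on 7 chromosomes, with TEAD1 and FJX1 both on chromosome 11. For each, the 5 nearest measured genes on either side in RefSeq order were taken. These included microRNA and other noncoding genes, among them MIR1324 and LINC00971 beside VGLL3. The median neighbour difference was -0.10 around VGLL3, with a range of -0.63 to 0.03, and 0.03 around CRIM1, with a range of -0.47 to 0.47. It was 0.01 around AJUBA and TEAD1, 0.00 around ANKRD1, and -0.03 around CCN2 and VGLL1.

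The neighbours of FJX1 had the highest median, 0.25, and a range of -0.36 to 3.05. The highest was EHF, which encodes an epithelial transcription factor, and CD44 (0.50) and PRR5L (0.75) were among the others. Neighbours above the gene itself were also found for CCN2 (0.70), where ENPP1, an ectoenzyme gene, was at 1.13, for TEAD1 (0.21), whose highest neighbour was at 0.24, for ANKRD1 (0.45), whose highest was at 0.50, and for VGLL1 (-0.05), whose highest was at 0.14.

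**Figure D2:**
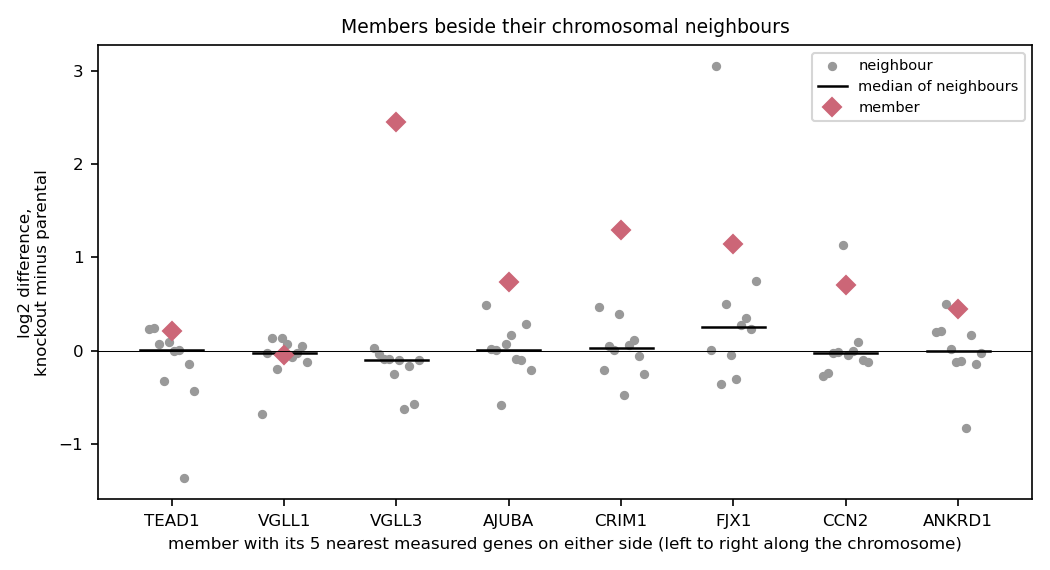
Log2 difference, knockout minus parental, of each of the 8 genes (diamond) beside those of its 10 measured chromosomal neighbours (grey points, in order along the chromosome) and their median (line). VGLL3 at 2.45 stands above neighbours of -0.63 to 0.03, while FJX1 at 1.14 has a neighbour at 3.05.

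The rest of the pathway was tested from a list of 73 further genes set up by role, of which 51 were measured. Measured means that the platform annotation named a probe set for the gene. The list was written with earlier results of these data known. Its counts beside those of all genes are thus a description and no independent test. By limma with Benjamini-Hochberg adjustment over 14884 genes, 15 of the 51 rose and 14 fell in knockout cells, and 22 did not pass. Over all genes, 15.3% rose and 19.0% fell. The median difference of the 51 was -0.03, against 0.00 over all genes.

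The other TEAD factors were spread around 0. TEAD2 fell from 5.87 ± 0.08 to 5.42 ± 0.20 (SD, n = 5 each), with all knockout arrays below all parental arrays (-0.46 ± 0.09, limma adjusted p = 0.00141). TEAD3 had a difference of -0.24 ± 0.09 and did not pass (limma adjusted p = 0.0588), but it passed without knockout replicate 1 (limma adjusted p = 0.00953). TEAD4 was at 7.17 ± 0.04 and 7.36 ± 0.14, a difference of 0.19 ± 0.07 that passed narrowly (limma adjusted p = 0.0460). With an array left out TEAD4 missed the threshold in 9 of 10 cases, at adjusted p up to 0.110, and it also missed it with the arrays centred (0.0529). Of the fits with an array left out, only that without knockout replicate 1 still passed (0.00645). TEAD4 also passed with quantile normalisation (limma adjusted p = 0.00677), the filter on dim genes (0.0176) and the intensity trend (0.0265). It passed narrowly with the mean of probe sets (0.0453) and all named probe sets (0.0481), and missed with the replicate block (0.0687).

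The 2 coactivators moved in opposite directions by small amounts. YAP1 rose from 9.02 ± 0.08 to 9.28 ± 0.06 (SD, n = 5 each), a difference of 0.26 ± 0.06 (limma adjusted p = 0.00298), and all knockout arrays lay above the parental ones. Its second probe set (16743628) gave 0.18 ± 0.09, with overlapping groups, and did not pass in the fit of all named probe sets (limma adjusted p = 0.161). WWTR1 fell from 6.43 ± 0.09 to 6.19 ± 0.07, a difference of -0.24 ± 0.06 (limma adjusted p = 0.00803), with no overlap. VGLL2 (-0.07 ± 0.06) and VGLL4 (-0.09 ± 0.07), the remaining vestigial-like genes, did not pass. The 10 neighbours of YAP1 on chromosome 11 had a median of 0.05 and reached 0.29.

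Of the core kinase cassette, 5 of 6 listed genes were measured, and 0 rose and 1 fell. SAV1, the scaffold of the MST kinases, fell from 7.17 ± 0.06 to 6.63 ± 0.11 (SD, n = 5 each; -0.55 ± 0.06, limma adjusted p = 1.76e-05). The MST kinase genes STK3 (0.20 ± 0.09) and STK4 (0.00 ± 0.05) and the LATS cofactor genes MOB1A (-0.06 ± 0.06) and MOB1B (-0.17 ± 0.07) did not pass. MOB1B passed without parental replicate 3 (limma adjusted p = 0.0224).

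Of 23 measured upstream regulators 6 rose and 8 fell, with a median of -0.10. With an array left out, the rises ran from 4 to 6 and the falls from 8 to 9. Of the rises, NF2 and LIMD1, named after their values were seen, missed the threshold in 8 and 6 of 17 alternatives. Their limma adjusted p reached 0.0785 and 0.0826. The Fat cadherin genes had the largest changes. FAT4, a giant cadherin, rose from 6.46 ± 0.14 to 8.24 ± 0.11 (SD, n = 5 each), or 3.43-fold (limma adjusted p = 3.34e-09), and FAT1 rose from 7.92 ± 0.05 to 9.03 ± 0.15, or 2.16-fold (limma adjusted p = 9.15e-08). Both belong to the family of Fat, one of the cadherins that four-jointed modifies in flies. DCHS1, the relative of Dachsous, was at 0.04 ± 0.08 and did not pass by any of its 3 probe sets.

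RASSF6, a scaffold gene that binds the MST kinases, rose by 0.68 ± 0.12. CRB3, an apical polarity gene, fell by 0.70 (SE 0.08). SIKE1, a member of the STRIPAK phosphatase complex, fell by 0.68 (SE 0.07), and WWC3, of the KIBRA family, fell by 0.61 (SE 0.08). These genes were named because they passed and their groups did not overlap, so neither is a separate result. Their limma adjusted p lay between 3.76e-06 and 0.000600.

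**Figure D3:**
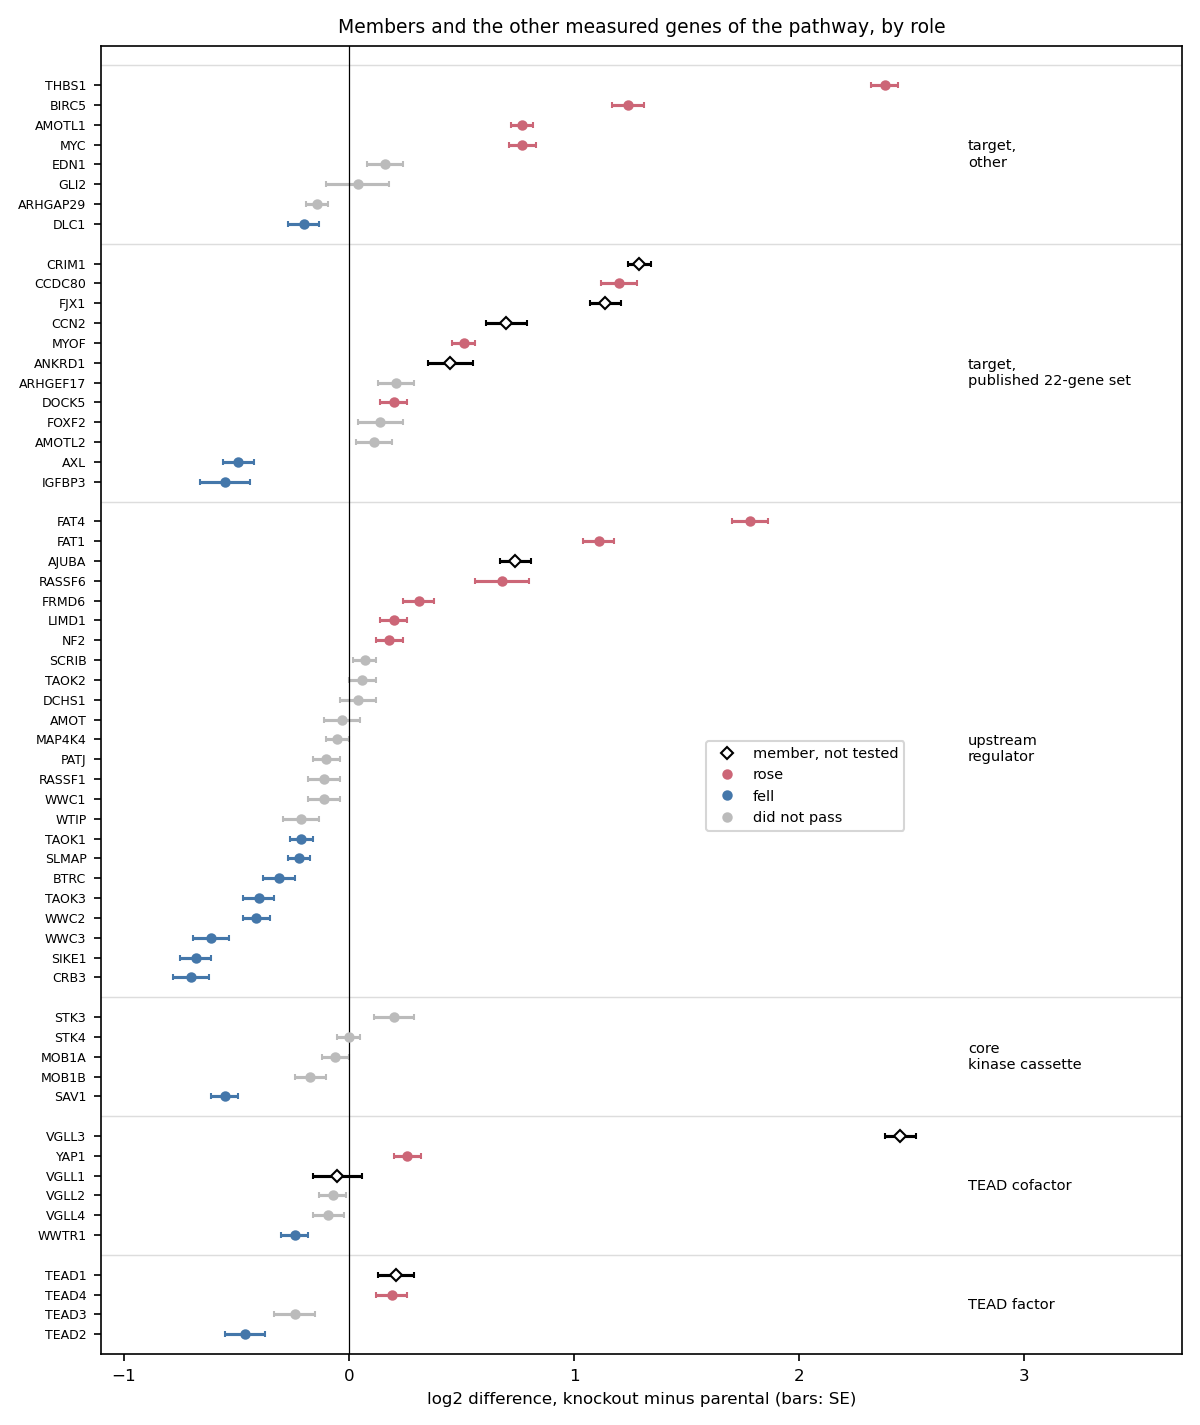
Log2 difference, knockout minus parental, with its SE, for the 8 genes (open diamonds, not tested) and the 51 other measured genes of the pathway (circles, coloured by the limma call), grouped by role. VGLL3 at 2.45 and THBS1 at 2.38 lie furthest to the right, and the pathway genes fall on both sides of 0.

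Further targets were split in direction. A published set of 22 YAP target genes holds LATS2, CCN1, CCN2, ANKRD1, CRIM1 and FJX1. Of its other 16 genes 8 were measured, and 3 rose and 2 fell, with a median of 0.17. The rest of the 16 were not analysed here, so this median describes only part of the set. CCDC80, a matrix protein gene, rose from 5.60 ± 0.12 to 6.80 ± 0.15 (SD, n = 5 each; limma adjusted p = 1.45e-07), MYOF, which encodes the membrane repair protein myoferlin, rose by 0.51 ± 0.05, and DOCK5 rose by 0.20 ± 0.06. AXL, a receptor tyrosine kinase gene, fell by 0.49 (SE 0.07), and IGFBP3, which encodes a binding protein of insulin-like growth factors, fell by 0.55 (SE 0.11). CCDC80 is also known as a fibroblast product. Of the measured fibroblast markers DCN rose in the same arrays and LUM (-0.09) and THY1 (0.11) did not pass, and their part in the CCDC80 value was not tested.

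Among 8 measured targets outside that set, 4 rose and 1 fell, with a median of 0.46. THBS1, which encodes the matrix glycoprotein thrombospondin, rose from 8.59 ± 0.08 to 10.98 ± 0.06 (SD, n = 5 each), or 5.22-fold (limma adjusted p = 3.82e-11). BIRC5, which encodes survivin and is also a mitosis gene, rose by 1.24 ± 0.07. MYC (0.77 ± 0.06) and AMOTL1 (0.77 ± 0.05), an angiomotin family gene, rose as well, and the second AMOTL1 probe set (16743414) gave 0.33 ± 0.10. The median neighbour difference was 0.27 around AMOTL1, with a highest value of 1.44 at MRE11, 0.26 around BIRC5 and 0.24 around MYC, against -0.10 around THBS1. The neighbours of MYC included microRNA genes such as MIR1206. The fall was that of DLC1, named after its value was seen, which was at -0.20 ± 0.07 (limma adjusted p = 0.0297) and missed the threshold in 6 of 16 alternatives, with adjusted p from 0.0209 to 0.0785.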

How the data were processed

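The values were log2 signals per probe set, summarised and normalised by the authors before they deposited them. Affymetrix Expression Console and Partek 6.6 are named in the submitters' processing notes, while how signals were summarised, normalised or filtered is not given in the sources used here. Symbols came from the platform annotation, updated by Entrez identifier in RefSeq (GRCh38.p14). All 16098 probe sets with 1 symbol matched, 0 had several and 37519 of 53617 had none. Each gene was represented by its brightest probe set, by the mean of the 10 arrays. Differences were fitted with lmFit and eBayes (limma 3.58.1, R 4.3.3), without covariates, and adjusted by Benjamini-Hochberg over 14884 genes with a threshold of 0.05. All p-values were two-sided, and the fit was tested on simulated data. Second probe sets were fitted with all named probe sets. The 5 arrays per group limit the precision.

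The members and lists were chosen with earlier results of these data known. Of the other pathway genes, every TEAD factor, cofactor and core kinase gene was named, and in each other role up to 6 with the largest differences that passed without overlap. The alternatives were quantile normalisation, median centring, a filter on dim genes, the mean of probe sets, an intensity trend, a fit of all named probe sets, leaving out each array, the replicate number as a block, and counts without chromosomes 11 and 17. Motifs were searched with Python 3.11.15 on both strands.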

Additional observations from a re-analysis of the deposited data

Results flagged for a closer look

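In 4 of 72 groups of 5 values examined, the highest or lowest array stood far from the other 4, where chance gives about 1 in 20. Knockout replicate 5 read 3.89 for VGLL1, against 4.28 to 4.40 in the other knockout arrays. The same array read 10.07 for CRIM1, against 10.01 to 10.02, a gap that is small beside the CRIM1 difference of 1.29. Parental replicate 3 read 9.16 for YAP1, against 8.97 to 9.01. Parental replicate 1 read 8.73 for MOB1A, against 8.87 to 8.89.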

How the results depend on the processing

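The differences of the 8 genes moved by less than their spread within groups under every alternative run, except that CCN2 was 0.38 with the mean of its probe sets. VGLL1 and ANKRD1 could not be given with the filter on dim genes, which leaves them out. For the 27 other named pathway genes, 440 of 456 values under alternatives kept direction and side of the threshold, 11 lost and 5 gained a call, and 0 called values reversed. TEAD factor rises (1) became 0 with centring and with the replicate block, and ran from 0 to 1 with an array left out. TEAD factor falls (1) became 2 with the dim filter and the replicate block, and ran from 1 to 2 with an array left out. Core kinase falls (1) became 2 with the dim filter, and ran from 1 to 2 with an array left out. Falls among other targets (1) became 0 with the intensity trend and the replicate block, and ran from 0 to 2. Without chromosomes 11 and 17, rises became 0 among TEAD cofactors and 2 among other targets. These counts leave out YAP1 and AMOTL1, on chromosome 11, and BIRC5, on chromosome 17. The cause of the other shifts was not tested. In all, rises ran from 12 to 16 and falls from 13 to 15 with an array left out.

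Same-numbered arrays did not deviate together (correlations of -0.01 to 0.20), so the numbers were not taken as pairs. With the replicate block TEAD3 passed (limma adjusted p = 0.0437) and TEAD4 did not (0.0687).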
